A study of Homo sapiens with 2 samples.

Results

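Mitosis, spindle and kinetochore genes were compared between 2 human prostate cancer cell lines, C4-2B and C4-2B-MDVR. The 58 genes were taken as a list of symbols, covering mitotic kinases, kinesins, kinetochore, checkpoint and cytokinesis genes, and probe sets were assigned to them by the gene symbol of the platform annotation. All 58 were found, with 108 probe sets, among 19775 named genes in all. C4-2B is sensitive to enzalutamide, an antiandrogen used against prostate cancer, and C4-2B-MDVR is its resistant derivative, obtained by long culture of C4-2B in the drug per the series description. Both lines were grown in RPMI-1640 with fetal bovine serum, and the sample titles give no treatment for either before total RNA was taken. The titles do not say whether C4-2B-MDVR had been kept in enzalutamide until then. Each line was measured on 1 Affymetrix array, so there was no spread between replicates, no test was possible, and every value describes these 2 arrays. C4-2B is called the parental line and C4-2B-MDVR the resistant line where single genes are described. The free-text description of the resistant sample names another line, TaxR, resistant to docetaxel, whereas its title, source and cell line entries name C4-2B-MDVR, and the latter were followed. Each difference is the log2 intensity of C4-2B-MDVR less that of C4-2B, so a negative value means a lower signal in C4-2B-MDVR.

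Mitosis begins when cyclin-bound CDK1 becomes active. The kinetochore then ties each chromosome to spindle microtubules, the spindle checkpoint holds back the anaphase promoting complex until all chromosomes are attached, and cytokinesis parts the daughter cells. Most of these genes are transcribed only late in the cell cycle, through the MuvB complex with B-MYB and FOXM1, which acts at a short promoter element called the cell cycle genes homology region (CHR), often beside CCAAT boxes that bind NF-Y. Their summed level in a growing culture is widely read as a sign of how many cells are cycling. In bulk RNA, fewer cells in mitosis and less RNA per cell cannot be told apart.

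Promoter sequences were taken from RefSeq (GRCh38.p14), which held a window from 250 bases before to 50 after the start for 49 of the 58 genes; the first window listed was used where a gene had several. The sequences below are the 120 bases before the start, 5′ to 3′ on the strand of the gene, with matches to the CHR letters TTTGAA and to CCAAT in capitals, on either strand. They were chosen to set genes with a lower signal in C4-2B-MDVR (CCNA2, HMMR and ASPM) beside genes with a similar signal in both lines (CCNB2, PLK1 and ESPL1).
CCNA2, chr4:121823884-121824003, minus strand: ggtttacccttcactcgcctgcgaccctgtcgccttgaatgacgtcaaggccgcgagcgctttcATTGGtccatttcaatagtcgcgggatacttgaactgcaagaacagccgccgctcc
HMMR, chr5:163460512-163460631, plus strand: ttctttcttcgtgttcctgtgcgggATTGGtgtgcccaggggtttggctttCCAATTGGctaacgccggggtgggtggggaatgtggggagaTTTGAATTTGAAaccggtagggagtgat
ASPM, chr1:197146670-197146789, minus strand: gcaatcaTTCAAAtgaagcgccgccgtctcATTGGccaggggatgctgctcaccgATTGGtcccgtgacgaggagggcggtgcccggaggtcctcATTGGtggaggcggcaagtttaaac
CCNB2, chr15:59105026-59105145, plus strand: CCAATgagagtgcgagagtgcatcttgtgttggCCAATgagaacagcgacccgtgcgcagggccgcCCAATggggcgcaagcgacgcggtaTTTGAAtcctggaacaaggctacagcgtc
PLK1, chr16:23678769-23678888, plus strand: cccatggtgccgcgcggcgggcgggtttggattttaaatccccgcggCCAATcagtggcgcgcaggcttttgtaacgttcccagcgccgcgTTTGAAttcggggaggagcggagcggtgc
ESPL1, chr12:53268179-53268298, plus strand: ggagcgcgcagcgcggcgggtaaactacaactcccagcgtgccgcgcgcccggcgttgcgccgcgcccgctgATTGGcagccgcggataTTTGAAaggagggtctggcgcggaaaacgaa
The HMMR stretch holds a tandem pair of CHR letters, whose first bases lie at positions -28 and -22 from the start, and 2 of its CCAAT matches overlap because the letters read the same way on both strands there. In CCNB2 and PLK1 the CHR letters begin at -29 and in ESPL1 at -31, whereas in ASPM they begin at -113. The CCNA2 stretch has no TTTGAA, but it holds the related letters CTTGAA at -28 and -87, which were searched for after this window was seen.

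The mitotic genes were lower in C4-2B-MDVR as a group, by a modest amount. Of the 58 genes, 48 had a difference below 0 and 10 above 0, and the median difference was -0.33, where all 13437 named genes above the detection floor had a median of 0.04 and 44.8% below 0. A gene passed the floor when its brighter value reached the median of all probe sets on that array, and all 58 genes lay above it on both arrays. In C4-2B the genes had intensities from 123 to 5103 with a median of 729.7, and in C4-2B-MDVR from 112 to 4158 with a median of 579. The shift was broad rather than large: 4 genes were lower by 2-fold or more, 0 were higher by as much, and 45 lay within 1.5-fold. Over all named genes above the floor, 3.5% were lower by at least that fold and 3.17% higher. With a threshold of 1.5-fold, 13 of the 58 genes were lower and 0 higher, against 9.32% and 8.26% of all named genes. Over the 8562 named genes within the same range of mean level, 50.8% lay below 0, 10.9% were lower by at least 1.5-fold and 3.7% by at least 2-fold.

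**Figure D1:**
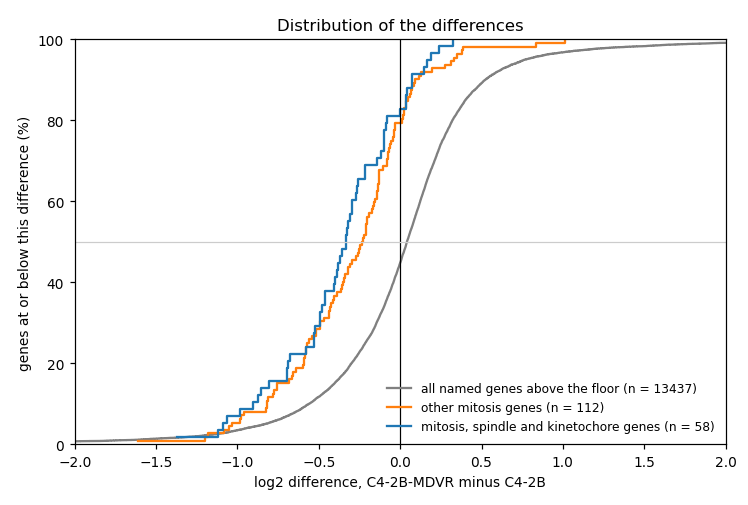
Cumulative distribution of the log2 difference (C4-2B-MDVR minus C4-2B, x axis) for all 13437 named genes above the floor, for 112 other mitosis genes and for the 58 mitosis, spindle and kinetochore genes, as the percentage of genes at or below each difference (y axis). From about the 2-fold point on, the curve of the 58 genes lies to the left of that of all genes; it crosses 50% at -0.33 and ends at 0.32.

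The 4 genes past 2-fold were CCNA2, HMMR, CENPE and PLK4, which act in different steps. CCNA2 encodes cyclin A2, the partner of CDK2 and CDK1 from S phase into early mitosis. Its intensity was 697 in the parental line and 270 in the resistant line, a difference of -1.37 or 2.59-fold lower, and on its other probe set 580 and 291 (-0.996), just short of 2-fold. HMMR, a hyaluronan receptor that also binds spindle microtubules, had 1711 in the parental line and 787 in the resistant line, a difference of -1.12, with its other probe set at -0.74. CENPE, the kinesin that carries chromosomes to the spindle equator, had 429 and 201 in the same order, a difference of -1.09 from its only probe set. PLK4, the kinase that starts centriole duplication, had 406 and 194, a difference of -1.07. Its other probe sets, dimmer, were at -0.82 and -0.60, so its place past 2-fold rested on the brightest probe set. Just short of the threshold were TTK (-0.98) and ASPM (-0.91). In these 6 genes C4-2B-MDVR was the lower array on each probe set above the floor.

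**Figure D2:**
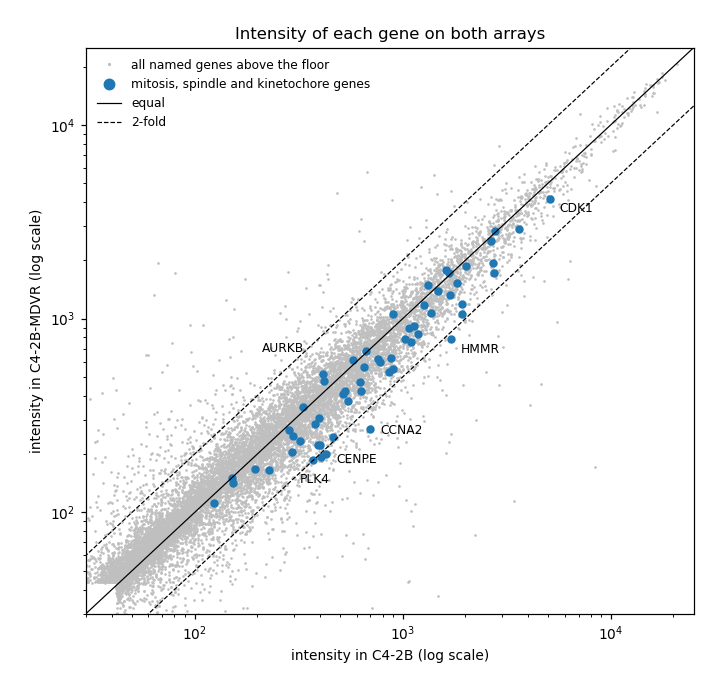
Intensity of each gene in C4-2B (x axis) and C4-2B-MDVR (y axis), both on log scales, with all 13437 named genes above the floor in grey and the 58 mitosis, spindle and kinetochore genes in blue; the solid line marks equal intensity and the dashed lines a 2-fold difference. Most blue points lie under the solid line and within the dashed lines, and CCNA2, HMMR, CENPE and PLK4 lie past the lower one.

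Among the cyclins and their kinase, all 6 genes had differences below 0, but cyclin A2 stood well below the others. CDK1, the kinase that drives entry into mitosis, had an intensity of 5103 in the parental line and 4158 in the resistant line, a difference of -0.30. CCNB1, encoding the main mitotic cyclin, had 2716 and 1945 (-0.48), and its other probe set was at -0.89. CCNB2, encoding the second B-type cyclin, had 2018 and 1862, a difference of -0.12 that turned to 0.12 with the mean of all its probe sets, 1 of them under the floor. On their brightest probe sets the B-type cyclins and CDK1 lay within 1.5-fold and cyclin A2 did not, but CCNB1 also passed 1.5-fold with the mean of its probe sets (-0.69). The phosphatases that remove inhibitory phosphate from CDK1 were at -0.33 (CDC25B) and -0.26 (CDC25C), and the 3 CDC25C probe sets above the floor lay between -0.53 and 0.32, on both sides of 0. Of the transcription factors of the group, FOXM1 had 1077 in the parental line and 894 in the resistant line. Its difference (-0.27) was near the median of the 58 genes (-0.33). MYBL2, which encodes B-MYB, differed little, with 663 and 683 (0.04, and -0.01 with median centring).

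The mitotic kinases had a wide spread of differences, with 6 of 7 below 0 and a median of -0.39. TTK, also called MPS1, the kinase that starts spindle checkpoint signalling, had an intensity of 370 in the parental line and 188 in the resistant line. PBK, a mitotic MAP kinase kinase-like protein, had 2740 and 1714 (-0.68). NEK2, which splits the centrosome pair, was at -0.39 with its other probe set at 0.17, AURKA, which matures the spindle poles, at -0.31 with its other probe set at -0.52, and MELK at -0.09. PLK1, which acts at centrosomes, kinetochores and the midbody, had 580 and 609 (0.07). PLK1 was the highest of these kinases, and PLK4 was the lowest on its brightest probe set, whereas with the mean of its probe sets (-0.83) TTK was lower.

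Among the genes of the spindle checkpoint and anaphase, 6 of 8 were below 0, and those with the lowest differences were MAD2L1 and BUB1. MAD2L1, which encodes the MAD2 protein that binds and restrains CDC20, had an intensity of 1933 in the parental line and 1055 in the resistant line (-0.87), and its other probe sets were at -0.79 and -1.19. BUB1, a checkpoint kinase of the kinetochore, had 391 and 223 (-0.81), and -0.30 on the dimmer probe set that passed the floor. BUB1B, encoding BUBR1, was at -0.36. BUB3, the partner of both, was at -0.08, and its 5 probe sets above the floor ran from -0.49 to 0.25. CDC20, the activator of the anaphase promoting complex that these proteins inhibit, had 1676 and 1720 (0.04, and -0.02 with median centring). UBE2C, its ubiquitin-conjugating enzyme, was at -0.10. PTTG1, which encodes securin, was at -0.32, and ESPL1, which encodes the separase that securin blocks, had 419 and 478 (0.19, with its other probe set at 0.26).

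Kinetochore genes ranged from CENPE at -1.09 to SPC25 at 0.07, with 8 of 10 below 0. CENPU, a subunit of the inner kinetochore, had an intensity of 1925 in the parental line and 1186 in the resistant line (-0.70). Its other probe sets gave a larger difference, from 211 to 62.1 (-1.77) and from 194 to 65.9 (-1.56), the widest disagreement among all genes of the list. The 4 subunits of the NDC80 complex, which grips the microtubule end, were unequal: NDC80 was at -0.58, SPC24 at -0.53 and NUF2 at -0.41, whereas SPC25 had 331 in the parental line and 349 in the resistant line. CENPF was at -0.30 and SKA1, of the complex that follows shortening microtubules, at -0.14. CENPA, the centromere's histone H3 variant, was at -0.10, and ZWINT, which links the outer kinetochore to the checkpoint, at 0.03 (-0.02 with median centring). In the chromosomal passenger complex, which corrects faulty attachments, the kinase gene AURKB was higher, with 415 in the parental line and 519.6 in the resistant line (0.32 on both of its probe sets). Its partners BIRC5, which encodes survivin (-0.27, with probe sets from -0.67 to -0.14), CDCA8, which encodes borealin (-0.22), and INCENP (-0.10) were below 0. AURKB had the highest difference of all 58 genes, and at 1.25-fold it was still within 1.5-fold.

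Mitotic kinesins, motors that build and elongate the spindle, had 8 of 9 genes below 0 and a median of -0.40. KIF14, a kinesin of the midbody, had an intensity of 402 in the parental line and 222 in the resistant line, and its 2 probe sets gave -0.86 and -0.85. KIF20A, which brings the passenger complex to the central spindle, had 894 and 551 (-0.70). KIF23, of the centralspindlin complex, was at -0.52, KIF11, the motor that pushes the poles apart, at -0.46, KIFC1 at -0.40, KIF4A at -0.33, KIF18A at -0.22 and KIF15 at -0.0016. KIF2C, which depolymerizes microtubules at the centromere, was the exception, with 898 and 1058 (0.24) and its other probe set at 0.33.

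Of the spindle assembly genes, 5 of 7 were below 0. Besides HMMR, ASPM, a spindle pole protein, had an intensity of 460 in the parental line and 246 in the resistant line. CKAP2L (-0.46), DLGAP5 (-0.38) and PRC1, which bundles the central spindle (-0.33), were below 0. TPX2, which activates Aurora A on the spindle, had 1614 and 1786 (0.15), and NUSAP1, a microtubule bundling protein, had 1326 and 1489 (0.17, with its other probe set at 0.32). HMMR and TPX2 proteins bind each other at the spindle pole, and their genes differed in opposite directions. The 3 cytokinesis genes were below 0: ECT2, the exchange factor that activates RhoA, was at -0.53 (other probe set -0.15), RACGAP1, the other centralspindlin subunit, at -0.49 and ANLN, encoding anillin, at -0.49 (other probe set -0.42). TOP2A, the topoisomerase that untangles sister chromatids, had 856 and 531 (-0.69, other probe set -0.51). MKI67, the Ki-67 proliferation marker, was at -0.37, but its 4 probe sets ran from -0.77 to 0.01.

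**Figure D3:**
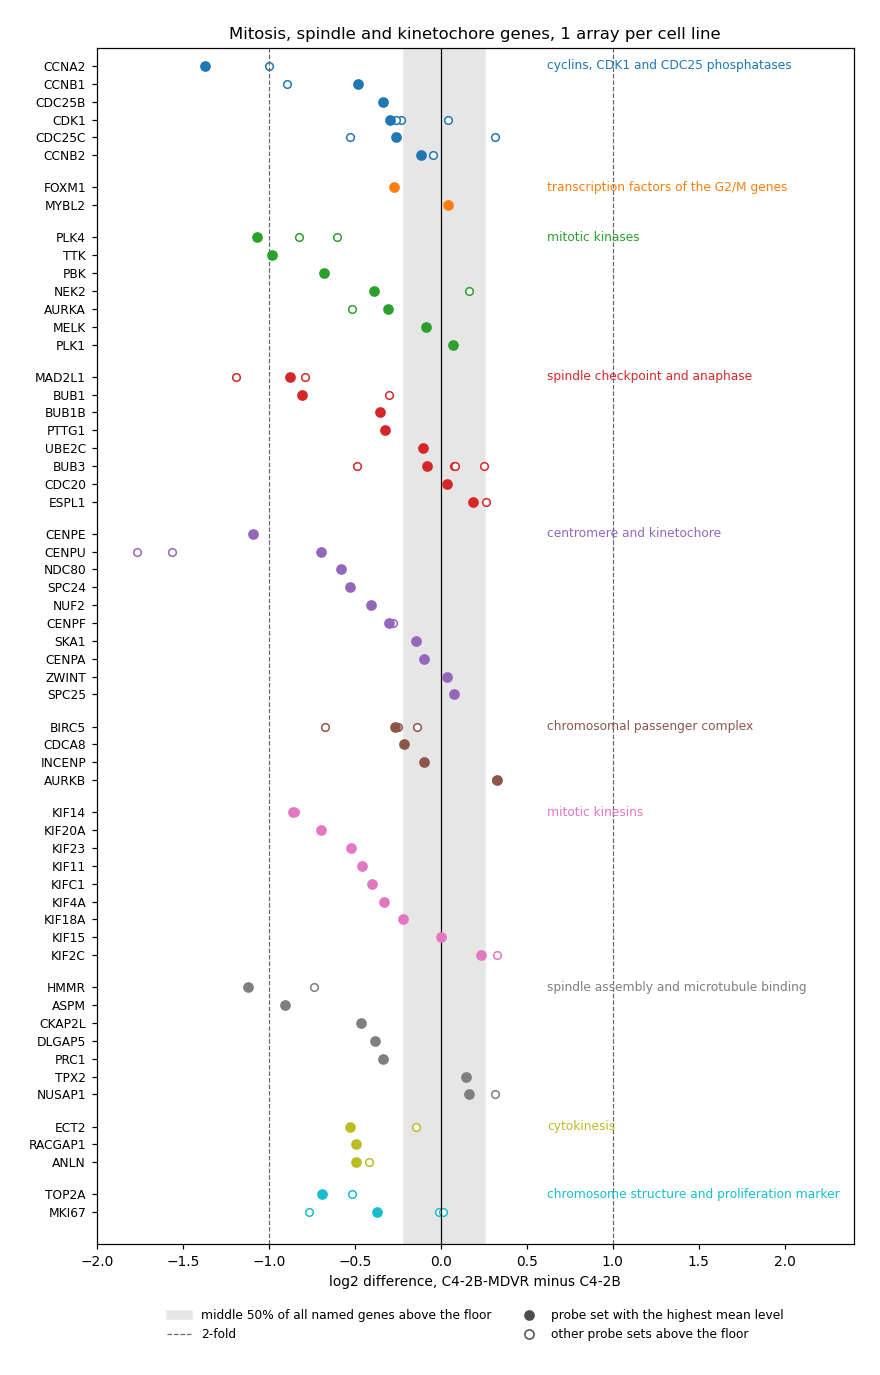
Log2 difference (x axis, C4-2B-MDVR minus C4-2B) of the 58 genes by role, with a filled point for the probe set of highest mean level and open points for other probe sets above the floor; the grey band is the middle 50% of all named genes above the floor and the dashed lines mark 2-fold. CCNA2, PLK4, CENPE and HMMR lie past the left line, 10 genes lie right of 0, and the open points of CENPU lie farthest left.

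Probe sets of one gene mostly pointed the same way. Of 95 probe sets of these genes above the floor, 74 were below 0, 7 were lower by 2-fold or more and 0 higher by as much, and their median was -0.33. The 7 probe sets came from 6 genes. The shares over all probe sets above the floor were not taken, so these counts have no background beside them. For 24 genes 2 or more probe sets were above the floor. All were below 0 in 15 of these genes, all above 0 in 4, and on both sides of 0 in 5, namely CDK1, CDC25C, NEK2, BUB3 and MKI67. For CDK1 only the dimmest probe set, with 83 in the parental line and 86 in the resistant line, was above 0 (0.04). Its brighter ones ran from -0.30 to -0.23. The median range between probe sets of a gene was 0.38 and the largest, for CENPU, 1.07. For 27 of the 58 genes the name of the brightest probe set marks sequence shared between transcripts or genes. The genes that stayed above 0 under every alternative run on them were AURKB, KIF2C, ESPL1, NUSAP1, TPX2, SPC25 and PLK1. For TPX2, SPC25 and PLK1, with 1 probe set each, only the scalings could change the value.

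Of the 4 genes past 2-fold, CCNA2, CENPE and PLK4 were on chromosome 4 and HMMR on chromosome 5, while TTK, ASPM, KIF14 and BUB1, next in size with MAD2L1, were on chromosomes 6, 1, 1 and 2. Chromosome 4 carried 5 of the 58 genes, CCNA2, CENPE, PLK4, MAD2L1 and CENPU, and these had differences from -1.37 to -0.70, with a median of -1.07. In gene order on chromosome 4, the 159 other genes above the floor from CENPE onward had a median of -0.48 with 74.8% below 0, and the 284 before CENPE a median of -0.01. Chromosome 5 carried HMMR, KIF20A, CCNB1, PTTG1 and CDC25C, all below 0 with a median of -0.48, where all genes of that chromosome had a median of -0.18. NDC80 and SKA1 were on chromosome 18, where all genes had a median of -0.21. The 46 genes on chromosomes with an all-gene median above -0.1 had a median of -0.30, with 36 below 0, 6 that were 1.5-fold or more lower and 0 past 2-fold. The 12 on chromosomes 4, 5 and 18 were all below 0 and had a median of -0.70.

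Each gene was also set against its neighbours, the 10 nearest named genes above the floor on each side in gene order, leaving out the 58 genes themselves (17 neighbours in all for NDC80, near the end of its chromosome). The neighbours of the chromosome 4 genes had medians of -0.55 at PLK4, -0.54 at MAD2L1, -0.50 at CENPU, -0.50 at CENPE and -0.40 at CCNA2. After that median was subtracted, CCNA2 was at -0.97, CENPE at -0.59, PLK4 at -0.51, MAD2L1 at -0.34 and CENPU at -0.20. The CENPU value rests on its brightest probe set (-0.70), and its dimmer probe sets, at -1.77 and -1.56, lay farther below its neighbours. HMMR was unlike the chromosome 4 genes, since its neighbours had a median of -0.09 and it was at -1.03 after subtraction. On chromosome 1, KIF14 was at -0.98 and ASPM at -0.92 after subtraction, with neighbours at 0.12 and 0.01. Of the 58 genes, 55 lay below their neighbours' median, and the median of the difference minus that of the neighbours was -0.37. The share of all named genes that lie below their neighbours' median was not taken, so this count has no background beside it. The exceptions were AURKB (0.15 above its neighbours), SKA1 (0.11) and KIF2C (0.03). Across the 58 genes, which are not independent and share some neighbours, the difference and the neighbours' median had Spearman's rho of 0.60 and Pearson's r of 0.66, and rho was 0.50 over the 53 genes not on chromosome 4. The part of what the neighbouring genes share in the differences of these genes was not tested.

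**Figure D4:**
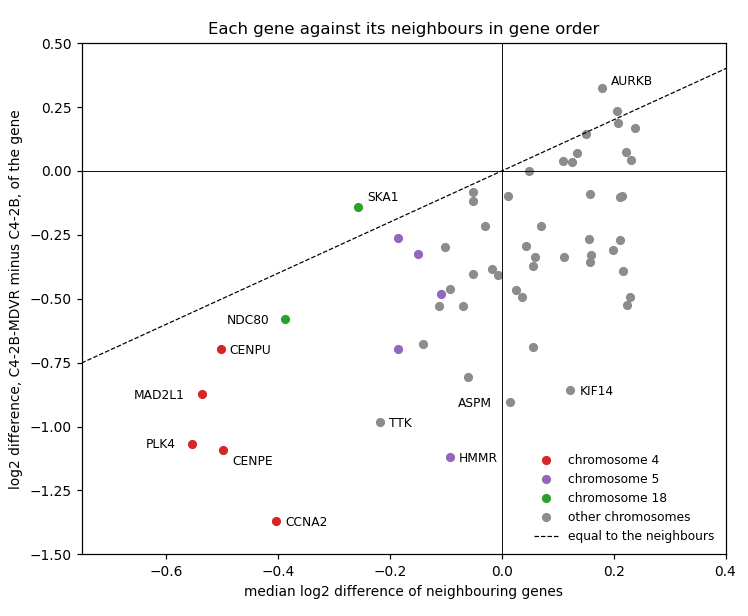
Log2 difference of each of the 58 genes (y axis) against the median log2 difference of its neighbouring genes (x axis), with chromosomes 4, 5 and 18 coloured; the dashed line marks a gene equal to its neighbours. The chromosome 4 genes sit at the lower left, HMMR, KIF14 and ASPM lie far below neighbours close to 0, and 55 points lie under the dashed line.

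The CHR letters and CCAAT were each found in most of the promoter windows, and genes with and without either had similar median differences. TTTGAA was found on either strand in 34 of 49 windows (69.4%), against 15.4% of the 27305 genes with a window and 9.79% of the 10791 of them above the floor. CCAAT was in 36 (73.5%), against 35.7% and 36.6%, and both were present in 27 windows (55.1%), against 6.08% and 4.05%. The 34 genes holding TTTGAA had a median difference of -0.35 and the 15 lacking it -0.39, and the 36 holding CCAAT had a median of -0.38 against -0.33 for the 13 lacking it. Of the chromosome 4 genes, CCNA2, CENPE and CENPU lacked TTTGAA, whereas PLK4 and MAD2L1 held it. CCNA2 counted as lacking it although its window holds CTTGAA. The medians were not adjusted for either, and a relation of the letters to the difference was not tested. The letters TTTGGCGC or TTTCGCGC of E2F sites were in 4 windows (8.16%), against 1.18% of all and 1.91% of those above the floor, with a median difference of -0.15. CTTGAA, which cannot match where TTTGAA does on the same strand, was in 3 windows (6.12%), against 11.2% of all and 7.39% of those above the floor. These were CCNA2 (at -87 and -28), KIF20A (at -244) and TOP2A (at -18). The search was prompted by the window of CCNA2, a gene printed for its lower signal. Differences of genes with and without CTTGAA are therefore not compared. Over all genes above the floor the median difference was -0.01 with TTTGAA in the window and 0.04 without. HMMR, CCNB2 and PLK1, printed above with CHR letters at nearly the same distance from the start, were picked by their differences (-1.12, -0.12 and 0.07). They therefore cannot show whether the position of the letters goes with the difference. A match is a description of the letters and not a binding site.

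Other genes of mitosis outside the list were lower to a similar degree. Of 119 listed, 113 were named by a probe set of their own and 112 lay above the floor. Of these 112, 89 were below 0 (79.5%, against 44.8% of all named genes above the floor), with a median of -0.23. Past 2-fold, 6 were lower (5.36%) and 1 higher (0.893%), against 3.5% and 3.17% of all named genes above the floor. Among the 105 not on chromosome 13, 2 were lower by as much (1.9%). CENPN, a kinetochore subunit that recognizes the CENPA nucleosome, had an intensity of 4784 in the parental line and 1565 in the resistant line (-1.61), and -2.74 and -2.38 on the dimmer probe sets that passed the floor. CENPQ, another subunit of the same inner kinetochore as CENPU, was at -1.18. The remaining 4 lower genes were all on chromosome 13, where all genes above the floor had a median of -0.47: CKAP2 (-1.20), SKA3 (-1.08), DIAPH3 (-1.05) and the cohesin regulator PDS5B (-1.04). On that chromosome all 7 of these other genes were below 0, and the 105 elsewhere had a median of -0.21. MAD1L1, which encodes the kinetochore anchor of MAD2, was the gene past 2-fold on the higher side, with 113 in the parental line and 228 in the resistant line (1.01), and with median centring or loess 0 genes passed 2-fold on that side. The next highest were the E2F partner TFDP2 (0.84, with probe sets from -0.42), the histone chaperone RBBP4 (0.38, with probe sets from -0.45), the condensin subunit NCAPD2 (0.38) and HJURP (0.35), the chaperone of CENPA.

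By role, kinetochore genes outside the list were below 0 in 20 of 23, cohesin and condensin genes in 16 of 20, and spindle, centrosome and cytokinesis genes in 19 of 22. Regulators of mitotic entry and exit were below 0 in 12 of 14, with WEE1, the kinase that inhibits CDK1, at -0.52 (other probe set -0.03) and LMNB1, a nuclear lamina protein, at -0.76. Among subunits and regulators of the anaphase promoting complex 13 of 19 were below 0, with ANAPC10 (-0.98) lowest. The MuvB, DREAM and E2F factors were split, with 9 of 14 below 0. The repressors E2F7 (-0.96, with its other probe set at 0.32) and E2F8 (-0.78), RBL2, a pocket protein of the DREAM complex (-0.82), and TFDP1 (-0.81, on chromosome 13) were lower.

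Cell identity and array quality were checked alongside. All 9 markers of luminal prostate epithelium were above the floor in both lines, with summed intensities of 16850 in the parental line and 14298 in the resistant line. Single luminal markers differed unequally, with SPDEF at -1.02 (1150 and 565) and STEAP2 at -0.90 (1915 and 1029), while KRT8 was at 0.32, and their part in the results was not tested. Of the basal markers KRT5 passed the floor and KRT14 did not, the 3 blood markers were all under it, and fibroblast markers summed to 419 and 388 and endothelial ones to 153 and 158. The 3' minus 5' difference of the ACTB control probe sets was 0.74 in the parental line and 0.52 in the resistant line, and that of GAPDH 0.30 and 0.26, and the part of RNA quality in the differences above was not tested.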

How the data were processed

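The deposited table used here holds 1 intensity value on a linear scale per probe set (54675) and array, as the authors deposited it; how they corrected, normalized and summarized the probes is not stated in the labels. Per the labels' protocols, RNA was isolated with Trizol, amplified with the Ambion WT Expression Kit and biotin-labelled. Log2 was taken with no further scaling. Gene symbols came from the 2016 platform annotation (41097 probe sets with 1 symbol), and each gene took its probe set of highest mean level. A gene counted when its brighter value reached that array's median (log2 5.39 in C4-2B, 5.44 in C4-2B-MDVR). Gene order, chromosomes and promoters came from RefSeq (GRCh38.p14). The members and lists were chosen with earlier results of these data known. The named genes were all 58 members, and of the other mitosis genes those past 2-fold and the 5 with the largest difference in each direction; WEE1, LMNB1, ANAPC10, E2F7, E2F8, RBL2 and TFDP1 were picked once their values were known. Results were recomputed with other scalings (loess with a span of 0.3, quantile, median centring), probe set rules, floors, thresholds and members left out. The steps were tested on simulated data. The software was pandas 2.3.3 and numpy 2.4.6 in Python 3.11.15, with statsmodels 0.14.6 for loess, scipy 1.17.1 for correlations, and figures from matplotlib 3.10.9.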

Additional observations from a re-analysis of the deposited data

How the results depend on the processing

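The median of the 58 genes (-0.33) lay between -0.41 and -0.29 under the alternatives run on it, and the number higher past the threshold was 0 in each. The number 2-fold or more lower (4) was 13 at 1.5-fold and 0 at 3-fold, 1 without the chromosome 4 genes, 1 after subtracting the neighbours' median, and 0 without the genes on chromosomes 4, 5 and 18, the neighbours and the chromosome choice being added after the data were seen. With probe sets that mark shared sequence left out, 39 genes remained, 30 of them below 0. For the other mitosis genes, the number higher went from 1 (MAD1L1) to 0 with median centring and loess, and the number lower from 6 to 2 without chromosomes of low median. PLK4 was at -0.83, -0.82 and -0.60 and HMMR at -0.93 with other probe set rules, short of 2-fold, while CENPU reached -1.77. In all, 44 genes were below 0 and 7 above 0 under each of the up to 10 alternatives run on them, and 7 changed sign. The alternatives of the floor could not change the value of a gene, since all 58 lay above the main floor on both arrays. They could leave a gene out: with the floor at the 75th percentile 57 genes remained, 47 of them below 0. The probe set rules could not change a gene with 1 probe set. No paired analysis was possible because each line has 1 array. The number of arrays limits the precision, and intensities near the floor of dim probe sets limit what they can show.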
